A study of Mus musculus with 10 samples.

Results

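The genes described here encode the subunits of the 5 oxidative phosphorylation complexes, compared between ARG1+ and ARG1- myeloid cells from the inflamed spinal cord. Members were the protein-coding rows of the count table whose gene names begin with Nduf (followed by a, b, c, s or v and a digit), are Sdha to Sdhd, or begin with Uqcr, Cox4 to Cox8, Atp5, mt-Nd, mt-Co, mt-Cytb or mt-Atp. By this rule 100 of the 55487 rows were members, 87 of them nuclear and 13 mitochondrial. A second row named Atp5o, at 0 counts, was among them, so that the 100 rows carried 99 names. No measured value entered the rule, although the members were chosen with earlier results of these data known.

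Oxidative phosphorylation takes place in the inner mitochondrial membrane. Complexes I and II pass electrons from NADH and succinate to ubiquinone, complex III passes them on to cytochrome c, complex IV hands them to oxygen, and complex V, the ATP synthase, uses the proton gradient built on the way to make ATP. Most subunits are encoded in the nucleus and imported, while the mitochondrial genome encodes core subunits of complexes I, III, IV and V, so that assembly needs the products of both genomes. In macrophages, reliance on oxidative phosphorylation is commonly associated with alternative activation, in which Arg1 (arginase 1) is a standard marker, and reliance on glycolysis with classical activation.

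Male C57BL/6 mice of 8 to 12 weeks that carried the Arg1tm1Lky allele, a reporter from which cells with Arg1 expression make yellow fluorescent protein (YFP), had experimental autoimmune encephalomyelitis (EAE), an inflammatory demyelinating disease, and were sampled at peak disease. Viable CD45+CX3CR1+ cells without CD3 and Ly6G were sorted from each spinal cord into a YFP+ fraction of 200000 cells, here ARG1+, and a YFP- fraction of 100000 cells, here ARG1-. The same 5 animals (m2, m6, m234, m235 and m236) gave both fractions, which makes 5 libraries per group. All cells thus came from diseased reporter animals, and the gate did not separate resident macrophages from cells derived from blood monocytes.

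The libraries held 28870482 to 33826355 counts in the ARG1+ group and 8396863 to 35455643 in the ARG1- group, where that of m234 was the smallest. Levels are given as CPM (counts per 1000000 counts of the library) after scaling by the trimmed mean of M values (TMM), and differences as the log2 fold change of ARG1+ over ARG1-. Arg1 (chr10:24915221-24927484, minus strand, GRCm38) averaged 814 ± 174 CPM across ARG1+ and 18.4 ± 4.96 CPM across ARG1- libraries (SD, n = 5 each), without overlap, and its log2 fold change was 5.45 (FDR = 1.07e-07, edgeR's quasi-likelihood test). Of the marker lists, that of monocyte-derived macrophages and pan-myeloid genes summed to 13067 to 17989 CPM in ARG1+ libraries and 11110 to 13603 CPM in ARG1- libraries, with 3 of 7 genes higher (Lyz2, Cd68 and Itgam, and with the animal as a block 4 higher and 3 lower). The monocyte list spanned 2583 to 9083 against 2616 to 7829 CPM, with 3 of 6 lower (Plac8 and Ccr2 among them, and with the block 2 higher and 4 lower), and the microglia list 745 to 1113 against 797 to 2562 CPM, with 0 of 7 past the test (edgeR without the block) and 5 lower with the block. Border-associated macrophage genes spanned 49.9 to 133 against 18.7 to 55.7 CPM, with 2 of 2 tested higher, Pf4 and Mrc1. The others of the 6 listed, Cd163, Lyve1, Folr2 and Cbr2, had too few counts to be tested. Dendritic cell genes spanned 9.28 to 23.9 against 20.5 to 39.7 CPM (4 of 5 tested lower, of 8 listed). Markers of neutrophils, T cells, B and plasma cells, NK cells, astrocytes, neurons, endothelial and erythroid cells summed to at most 31.2 CPM per list in every library, oligodendrocyte genes to 103 to 152 CPM and cycling genes to 62.2 to 104 CPM. No marker was at 0 in all libraries. The part of these markers in the differences below was not tested, and in bulk libraries a change in the share of a cell type cannot be told apart from a change in RNA per cell.

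Transcripts for the respiratory complexes differed little between ARG1+ and ARG1- cells. The first fit took the libraries as unpaired, although each animal gave both. In it, of the 89 members that passed the filter on low counts (CPM above 1 in at least 3 libraries), 1 was higher in ARG1+ cells, the complex I subunit Ndufa12, and 1 was lower, the complex IV subunit Ndufa4, at an FDR below 0.05. Over all 13740 genes tested, 6.82% were higher and 6.15% lower. None of the 89 passed the FDR together with an absolute log2 fold change above 1, which 1.45% of all genes did. At an unadjusted p below 0.05, 3 members were higher and 5 lower, against 15.0% of all genes in each direction. The 80 nuclear members tested had a median log2 fold change of 0.016, with 47 above and 33 below 0, and the 9 mitochondrial members a median of 0.14, with all 9 above 0. The median over all genes tested was -0.002, with 6817 of 13740 above 0. That over the 2183 tested genes with exons of less than 1000 bases in sum was -0.07, with 813 above 0. With the animal as a block, a fit described below, 10 members were higher and 6 lower, against 16.8% and 18.3% of all genes.

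The 95% confidence interval of the log2 fold change had a median width of 0.327 for members and 0.341 for the tested genes with a mean CPM above 10, so that the members were measured about as precisely as other genes of that level. This interval lay within 0.5 of 0 for 84 of 89 members (94.4%), against 81.2% of the 8632 tested genes with a mean CPM above 10, and within 0.25 of 0 for 53 members (59.6%), against 35.1% of those genes, shares that depend on the size of the differences as well as on their precision. For the mitochondrial members the median width was 0.397, and 1 of 9 intervals lay within 0.25 of 0. Apart from Ndufa12, Ndufa4 and the members at 2 CPM or less, log2 fold changes ran from -0.28 to 0.20 over 85 members, that is, folds of 0.826 to 1.15. The members not tested were Cox4i2, Cox6a2, Cox7b2, Cox8b, Cox8c, Ndufa4l2, the second Atp5o row, mt-Co2, mt-Atp8, mt-Atp6 and mt-Co3.

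**Figure D1:**
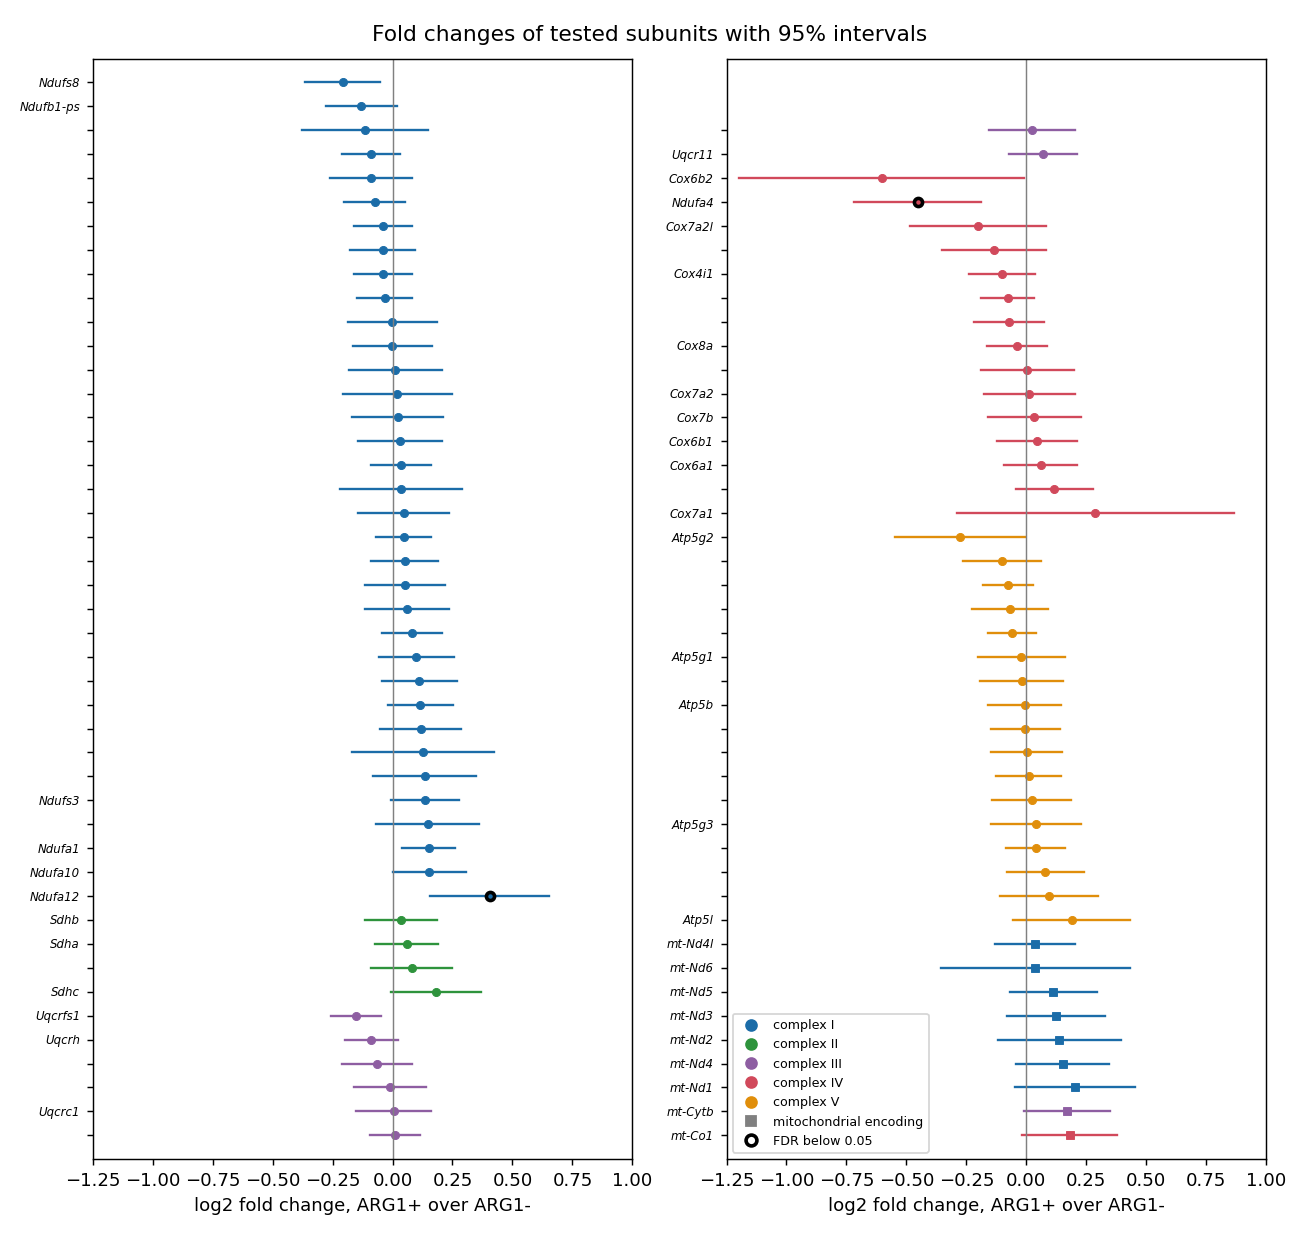
Log2 fold change of ARG1+ over ARG1- cells (horizontal axis) for the tested members that are reported here (rows, split over 2 panels), with 95% confidence intervals as bars and names beside a selection of them. Colour gives the complex, squares are mitochondrially encoded genes and a black rim marks an FDR below 0.05. Most points lie close to 0, Ndufa12 at 0.41 and Ndufa4 at -0.45 carry the rim, and the 9 squares all lie to the right of 0.

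Because each animal gave both libraries, the fit was repeated with the animal as a block. It called 10 members higher (16.8% of all genes tested) and 6 lower (18.3% of all genes). The nuclear members were divided evenly, with 6 higher (Ndufa10, Ndufs3, Ndufa1, Ndufa12, Sdhc and Atp5l) and 6 lower (Ndufa4, Ndufs8, Ndufb1-ps, Uqcrfs1, Cox7a2l and Atp5g2), while the 4 mitochondrial genes called (mt-Nd1, mt-Nd4, mt-Cytb and mt-Co1) were all higher. Those among them that had not passed without the block are described below because of this call, after their values were seen. Without the animal m234, whose ARG1- library was the smallest, the blocked fit called 6 nuclear members higher and 13 lower, and 6 mitochondrial members higher, while over all genes tested it called 19.9% higher and 20.8% lower.

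Complex I, the NADH dehydrogenase, had 36 nuclear members, all tested. Of these 24 had a log2 fold change above 0, the median was 0.04 and the range -0.21 to 0.41. Ndufa12, an accessory subunit of the peripheral arm, was the one called. In CPM it was at 11.4, 11.4, 9.08, 12.5 and 12.97 in the ARG1+ libraries of m2, m6, m234, m235 and m236, and at 8.42, 9.31, 6.94, 9.69 and 8.44 in the ARG1- libraries of the same animals, an order kept for every gene below. It was higher in ARG1+ cells of 5 of 5 animals, although the ARG1+ library of m234 fell below the ARG1- libraries of m6 and m235. The means were 11.5 ± 1.502 and 8.56 ± 1.06 CPM, with a log2 fold change of 0.41 (SE 0.114, 95% interval 0.16 to 0.65, FDR = 0.0366, edgeR's quasi-likelihood test) and p = 0.0238 in a 2-sided exact permutation test, where the smallest possible p was 0.00794. The permutation test, here and below, took the libraries as unpaired although each animal gave both.

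The count of Ndufa12 (chr10:94198720-94221443, plus strand, GRCm38) is uncertain because a processed pseudogene, Ndufa12-ps (chr5:130188395-130188796, plus strand), has almost the same sequence as part of its transcript. Of 402 aligned bases they differed at 2, A225G and T504C, where the first letter is the base of Ndufa12, the last that of the pseudogene and the position is counted from the 5′ end of the 1110-base Ndufa12 transcript. Annotated pseudogenes that hold at least 10% of the 50-base stretches of a gene are called its copies here, and Ndufa12-ps held 17.7%. A read of 50 bases between the differing positions cannot be assigned to either. The stretch that ends at the first difference is shown because it gives what a read has to tell them apart, with the differing base in capitals (bases 166 to 225 of the transcript, and chr5:130188434-130188493, plus strand, from the GENCODE M21 transcripts of GRCm38).
Ndufa12: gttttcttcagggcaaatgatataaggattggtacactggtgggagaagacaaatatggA
Ndufa12-ps: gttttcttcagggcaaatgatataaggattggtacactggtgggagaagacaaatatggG
The pseudogene row held 4923 counts over all libraries and Ndufa12 itself 2954. Summed, the pair was at 28.6, 28.5, 26.9, 33.3 and 28.8 CPM in ARG1+ libraries and 23.3, 25.4, 14.9, 27.9 and 26.8 CPM in ARG1- libraries. The ARG1- library of m234 was the lowest of the 10, and 1 ARG1+ library lay within the ARG1- range. The log2 fold change of the sum was 0.29 (95% interval -0.001 to 0.57, FDR = 0.167, edgeR), and with the animal as a block 0.30 (FDR = 0.0231), so that the call on Ndufa12 without a block was lost when the pseudogene was counted with it.

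Other complex I subunits moved by less. Ndufs8, a core subunit that holds iron-sulfur clusters, had the most negative difference of the complex. It was at 39.0, 45.2, 36.4, 35.9 and 42.4 CPM in ARG1+ libraries and 44.5, 48.8, 45.4, 43.0 and 48.0 CPM in ARG1- libraries, lower in ARG1+ cells of 5 of 5 animals although the groups overlapped (log2 fold change -0.21, 95% interval -0.36 to -0.05, FDR = 0.0766 in edgeR, and FDR = 0.00444 with the block). Ndufa1, an accessory subunit of the membrane arm, was at 43.3 to 48.6 CPM in ARG1+ libraries and 39.2 to 43.7 CPM in ARG1- libraries (log2 fold change 0.15, 95% interval 0.04 to 0.26, FDR = 0.0692, and FDR = 0.0206 with the block). Ndufa10, a further membrane-arm accessory subunit, had a log2 fold change of 0.15 (FDR = 0.167, and FDR = 0.0172 with the block), and the core subunit Ndufs3 one of 0.14 (FDR = 0.181, and FDR = 0.0423 with the block). Counted with its annotated pseudogene, Ndufs3 was at 0.11 with the block (FDR = 0.132). Ndufs5, a further accessory subunit described after its values were seen, went the other way, from -0.11 as counted to 0.16 when summed with its pseudogene (FDR = 0.201, and FDR = 0.0416 with the block), so that its direction depends on the copy. Ndufb1-ps, a row with a pseudogene-like name but a protein-coding annotation, was at -0.13 (FDR = 0.222, and FDR = 0.0318 with the block).

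All 4 subunits of complex II, the succinate dehydrogenase, which is encoded in the nucleus alone and also belongs to the tricarboxylic acid cycle, had a log2 fold change above 0, with a median of 0.07, and none passed the test without the block. Sdha, the flavoprotein that oxidizes succinate, was at 194 ± 13.8 CPM (ARG1+) and 186 ± 8.83 CPM (ARG1-) (log2 fold change 0.06, 95% interval -0.07 to 0.19, FDR = 0.539). Sdhb, the iron-sulfur subunit, had the smallest difference (0.04, 95% interval -0.11 to 0.19). Sdhc, one of the membrane anchors, had the largest. It was at 84.0, 82.0, 70.5, 87.4 and 84.5 CPM in ARG1+ libraries and 74.0, 72.1, 57.6, 74.5 and 80.8 CPM in ARG1- libraries. The groups overlapped, but within each of the 5 animals the ARG1+ library was the higher (log2 fold change 0.18, 95% interval -0.005 to 0.37, FDR = 0.178 in edgeR, and 0.19 with FDR = 0.00493 with the block).

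The 8 nuclear subunits of complex III, the cytochrome bc1 complex, had a median log2 fold change of -0.003, and none passed the test without the block. Uqcrc1, a core protein of the matrix side, was at 123 ± 5.60 CPM (ARG1+) and 122 ± 12.8 CPM (ARG1-) (log2 fold change 0.005, 95% interval -0.15 to 0.16). Uqcr11, a small accessory subunit, had the most positive difference (0.07, 95% interval -0.07 to 0.21). Uqcrfs1, the Rieske iron-sulfur protein that passes electrons on to cytochrome c1, had the most negative. Its ARG1+ libraries lay at 70.4, 71.3, 68.9, 70.1 and 72.0 CPM and its ARG1- libraries at 73.9, 82.8, 74.4, 77.2 and 83.3 CPM. It was the only one of the 89 tested members whose groups did not overlap, which held for 11.3% of all genes tested. The difference was small, at a log2 fold change of -0.15 (95% interval -0.26 to -0.05), and missed the threshold in edgeR's test (FDR = 0.0588) but not with the block (FDR = 0.0104).

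Complex IV, cytochrome c oxidase, has several subunits with tissue-specific isoforms. Of its 21 nuclear members 15 were tested, with a median log2 fold change of -0.04, and Ndufa4 alone was called. Ndufa4, named for complex I but now counted as a subunit of complex IV, was at 14.4, 13.2, 11.2, 18.6 and 15.5 CPM in ARG1+ libraries and 21.55, 18.1, 17.8, 20.1 and 21.7 CPM in ARG1- libraries. It was lower in ARG1+ cells of 5 of 5 animals, and the groups overlapped because the ARG1+ library of m235 stood above the ARG1- libraries of m6 and m234. The means were 14.6 ± 2.75 and 19.9 ± 1.85 CPM, with a log2 fold change of -0.45 (SE 0.122, 95% interval -0.72 to -0.19, FDR = 0.0313, edgeR's quasi-likelihood test) and p = 0.0238 in the 2-sided exact permutation test. With the block the log2 fold change was -0.45 (FDR = 0.00188). The gene (chr6:11900292-11907497, minus strand) shared no exon with another gene and had no annotated copy. Leaving out libraries or animals in turn moved its log2 fold change between -0.56 and -0.37 and the FDR between 0.00759 and 0.144, so that the call was lost in 8 of 15 such fits. That of Ndufa12 moved between 0.35 and 0.48, and its call was lost in 11 of 15.

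**Figure D2:**
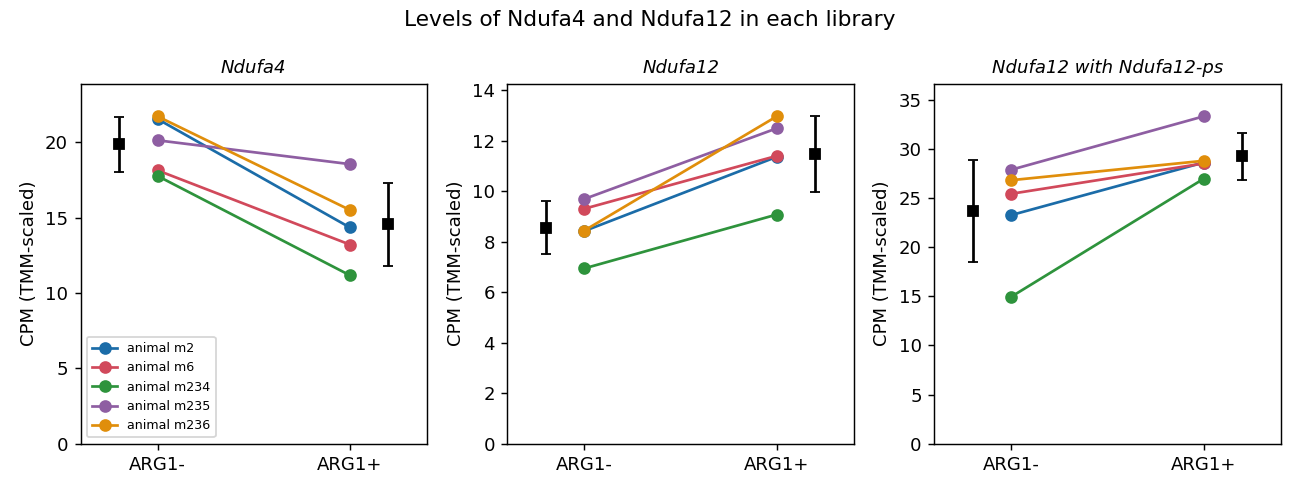
CPM (vertical axis) of Ndufa4, of Ndufa12, and of Ndufa12 summed with Ndufa12-ps in ARG1+ and ARG1- libraries. Lines join the libraries of 1 animal and squares with bars give the mean and SD of 5 libraries. Toward ARG1+ the lines of Ndufa4 fall and those of Ndufa12 climb in all 5 animals, and the sum in ARG1- cells is lowest in m234 at 14.9 CPM.

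Cox4i1, the common form of the nuclear subunit 4, was the most abundant complex IV member of the nucleus in CPM, at 289 ± 21.03 in ARG1+ and 310 ± 17.3 in ARG1- cells (log2 fold change -0.10, 95% interval -0.24 to 0.04, FDR = 0.308). The extremes of the complex apart from Ndufa4 were low genes with wide intervals. Cox7a1, the heart and muscle form of subunit 7a, was at 1.22 ± 0.323 and 0.942 ± 0.322 CPM (log2 fold change 0.29, 95% interval -0.29 to 0.87), and Cox6b2, the testis form of subunit 6b, at 0.733 ± 0.170 and 1.045 ± 0.404 CPM (log2 fold change -0.60, 95% interval -1.20 to -0.01, FDR = 0.155). Cox7a2l, a supercomplex assembly factor taken in by its name, was at 67.8, 79.5, 102, 61.3 and 80.9 CPM in ARG1+ libraries and 78.1, 89.5, 109.9, 81.7 and 93.0 CPM in ARG1- libraries. The spread between animals was larger than the difference between groups, and the ARG1+ library was the lower in 5 of 5 animals (log2 fold change -0.20, 95% interval -0.49 to 0.08, FDR = 0.323 in edgeR, and -0.22 with FDR = 0.00453 with the block).

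The common isoform of each subunit pair dominated. Per kilobase of exon, the mean level over all libraries was 392 CPM for Cox4i1 and 0.516 for Cox4i2, the lung form, a ratio of 759. The ratio was 165 for Cox6b1 over Cox6b2, 87.8 for Cox6a1 over the muscle form Cox6a2, 47.1 for Cox7a2 over Cox7a1 and 50.2 for Ndufa4 over Ndufa4l2, which is known as a target of hypoxia-inducible factor. Cox7b2, Cox8b and Cox8c had 0 counts beside 74.4 CPM per kilobase for Cox7b and 226 for Cox8a. Ndufa4l2 had 107 counts in ARG1+ and 40 in ARG1- libraries, with more CPM in the ARG1+ library of 5 of 5 animals, and Cox6a2 had 93 and 207 counts, with less in 5 of 5, its highest value being 5.41 CPM in the ARG1- library of m234. Both were below the filter and have no test.

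Complex V, the ATP synthase, had 18 nuclear members including the second Atp5o row, and 17 were tested. Their median log2 fold change was -0.003 and none passed the test without the block. Atp5b, the catalytic beta subunit and the nuclear member with the most counts, was at 678, 664, 612, 716 and 630 CPM in ARG1+ libraries and 658, 662, 580.0, 711 and 703 CPM in ARG1- libraries. The groups covered nearly the same range, with means of 660.1 ± 40.7 and 663 ± 52.2 CPM (log2 fold change -0.006, 95% interval -0.16 to 0.15, FDR = 0.967). Atp5l, subunit g of the membrane part, had the most positive difference (0.19, 95% interval -0.06 to 0.43, FDR = 0.280, and 0.20 with FDR = 0.0112 with the block).

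Atp5g1, Atp5g2 and Atp5g3 encode the same mature protein, subunit c of the rotor ring. As counted, Atp5g3 was at 176 CPM per kilobase, Atp5g2 at 12.2 and Atp5g1 at 5.66. Atp5g2 summed with its copies came to 129.6 CPM per kilobase, still below Atp5g3, so that the distance between them is uncertain. Atp5g2 had the most negative difference of the complex, at 8.06 ± 0.930 CPM (ARG1+) and 9.79 ± 1.502 CPM (ARG1-) (log2 fold change -0.28, 95% interval -0.55 to -0.003, FDR = 0.162, and FDR = 0.0373 with the block). Its 2548 counts stood beside 24378 on Gm10175, a pseudogene with shared sequence, and the sum with its copies had a log2 fold change of -0.08 (FDR = 0.589).

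The 13 subunits encoded in the mitochondrial genome belong to complex I (7 genes), complex III (mt-Cytb), complex IV (mt-Co1 to mt-Co3) and complex V (mt-Atp6 and mt-Atp8). The nuclear genome carries near-identical copies of several, and much of the signal was counted there. mt-Co2 (chrM:7013-7696) and mt-Atp6 (chrM:7927-8607) were listed at 0 counts and mt-Co3 (chrM:8607-9390) at 1. Their copies on chromosome 1 held 490274 (Gm28661), 572690 (Gm10925) and 430352 counts (Gm28437), and a partial copy of mt-Co2, Gm13341, a further 33882. mt-Co1 had 739489 counts of its own and 930764 on its partial copies Gm13340 and Gm29216. Gm28438, the copy of mt-Nd3, held 1939 counts beside 23781 on mt-Nd3, and Gm10222, the copy of mt-Nd4l, 0 beside 30372. mt-Atp8 (chrM:7766-7969) was at 0 and had no annotated copy.

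The copies and the mitochondrial genes were identical over stretches far longer than a read. Over the length of Gm28661 its 681 bases were those of mt-Co2, and the 678 bases of Gm10925 and the 783 of Gm28437 were likewise identical to mt-Atp6 and mt-Co3. The first 50 bases of mt-Co2, the length of a read, lie at chrM:7013-7062 on the plus strand and at chr1:24615516-24615565 on the minus strand of GRCm38 (GENCODE M21).
mt-Co2 and Gm28661: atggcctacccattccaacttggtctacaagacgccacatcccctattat
Over 345 aligned bases mt-Nd3 (chrM:9459-9518 for the 60 bases shown) and Gm28438 (chr1:24613060-24613119, minus strand) differed at 1, T3C, with the base of mt-Nd3 first and the position counted from its first base, here in capitals.
mt-Nd3: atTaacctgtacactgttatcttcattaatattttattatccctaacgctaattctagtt
Gm28438: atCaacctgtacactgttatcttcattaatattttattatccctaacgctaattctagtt
Counts for mt-Co1, mt-Co2, mt-Co3, mt-Atp6, mt-Nd3 and mt-Nd4l as deposited are therefore uncertain. The same holds for mt-Nd4, which shared 62.2% of its 50-base stretches with Gm28439, a copy with 12 counts. No annotated copy met the criterion for mt-Nd1, mt-Nd2, mt-Nd5, mt-Nd6 and mt-Cytb. Of these, mt-Nd2 and mt-Nd5 shared 8.19% and 7.61% of such stretches with other genes, under the limit of 10%.

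**Figure D3:**
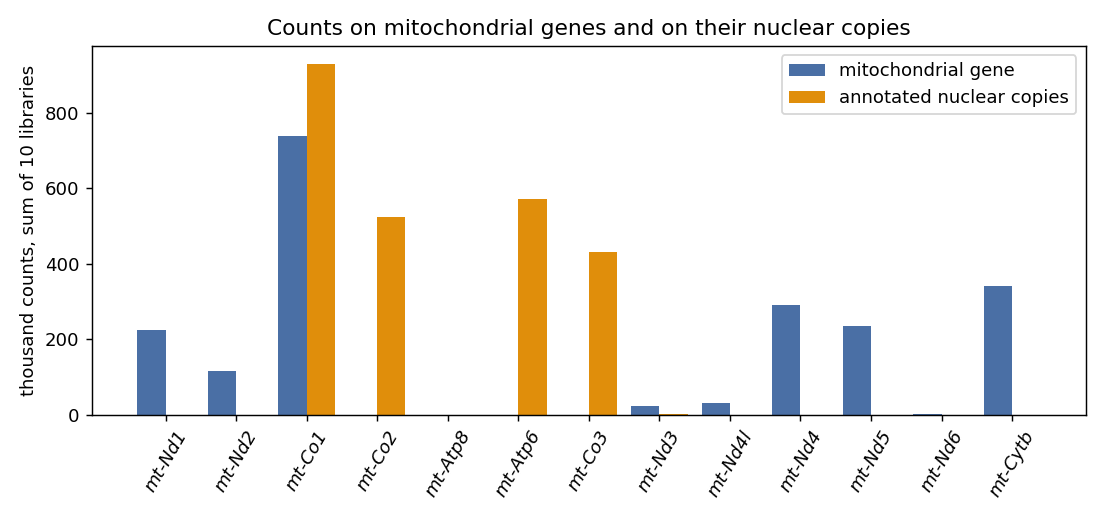
Counts summed over the 10 libraries (vertical axis, in units of 1000 counts), on each of the 13 mitochondrial subunit genes and on its annotated nuclear copies. For mt-Co2, mt-Atp6 and mt-Co3 nearly all counts stand on the copies, for mt-Co1 55.7% do, and for mt-Nd3 7.54%.

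Every mitochondrial subunit that was tested had a log2 fold change above 0, between 0.04 and 0.20, and none passed edgeR's test without the block, where 0 of 9 were also below an unadjusted p of 0.05. DESeq2 and limma-trend called 0 as well. mt-Co1, the catalytic subunit of cytochrome c oxidase, was at 2854, 2544, 2530.0, 2580.1 and 2989 CPM in ARG1+ libraries and 2245, 2251, 2112, 2422 and 2873 CPM in ARG1- libraries. Each ARG1+ library was above the ARG1- library of its animal, while the ARG1- library of m236 stood above 4 of the 5 ARG1+ libraries. The log2 fold change was 0.18 (95% interval -0.02 to 0.38, FDR = 0.204), and 0.19 with the block (FDR = 0.0171). mt-Cytb, the cytochrome b of complex III, was at 1369, 1085, 1154, 1349.6 and 1247 CPM in ARG1+ libraries and 1099, 1011, 1026, 1182 and 1201 CPM in ARG1- libraries, again higher in ARG1+ cells of 5 of 5 animals (log2 fold change 0.17, 95% interval -0.01 to 0.35, FDR = 0.190, and FDR = 0.0171 with the block).

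Among the complex I genes of the mitochondrial genome, which encode its proton-pumping membrane arm, mt-Nd1 had the largest difference. It was at 957, 743, 702, 791 and 937 CPM in ARG1+ libraries and 735, 649, 607, 714 and 883 CPM in ARG1- libraries. It was higher in 5 of 5 animals with overlap of the groups (log2 fold change 0.20, 95% interval -0.05 to 0.45, FDR = 0.258, and FDR = 0.00727 with the block). mt-Nd4 was at 1056 ± 117 and 951 ± 89.1 CPM (0.15, 95% interval -0.04 to 0.35, FDR = 0.279, and FDR = 0.0342 with the block), and mt-Nd2 at 419 ± 66.3 and 381 ± 51.6 CPM (0.14, 95% interval -0.12 to 0.39, FDR = 0.465). The log2 fold changes of mt-Nd3, mt-Nd5 and mt-Nd4l were 0.12 (-0.08 to 0.33), 0.11 (-0.07 to 0.29) and 0.04 (-0.13 to 0.20). mt-Nd6, the one subunit encoded on the other strand, was at 3.72 ± 0.973 and 3.68 ± 0.571 CPM (0.04, 95% interval -0.36 to 0.43), and its reads cannot be told apart from those of mt-Nd5 where they overlap unless the strand was used.

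Most of the nuclear copies had like differences. Gm10925, Gm28661, Gm28437, Gm29216, Gm13340 and Gm13341 had log2 fold changes of 0.18 to 0.25, each higher in ARG1+ cells of 5 of 5 animals and none past an FDR of 0.05 without the block. Gm28438, with 1939 counts, was at 0.06 (FDR = 0.833) and higher in 2 of 5 animals. Summed with their copies, mt-Co2 was at 0.19 (FDR = 0.141), mt-Atp6 at 0.18 (FDR = 0.298) and mt-Co3 at 0.19 (FDR = 0.222) in edgeR's test, and the summed fit with the animal as a block called 7 of the 12 mitochondrial members then tested, all higher, against 16.8% of all genes in the blocked fit. Most of these genes are transcribed together as parts of a long precursor, and all are scaled by the same library sizes, so that they do not vary independently.

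As shares of all counts, the mitochondrial subunits with their copies made up 1.60% ± 0.155 in ARG1+ and 1.45% ± 0.161 in ARG1- libraries (SD, n = 5 each). The share was higher in ARG1+ cells of 5 of 5 animals, by a ratio of 1.03 to 1.22. The nuclear subunits made up 0.576% ± 0.0205 and 0.590% ± 0.0358 and were higher in 1 of 5 animals. The ratio of the mitochondrial to the nuclear share, in which the library size cancels, was 2.78 ± 0.252 in ARG1+ and 2.46 ± 0.163 in ARG1- libraries and was higher in 5 of 5 animals, by 1.08 to 1.26 times. Counts on the mitochondrial ribosomal RNA genes, taken without nuclear copies, did not go the same way. They made up 0.0903% ± 0.0150 and 0.105% ± 0.0213, highest in the ARG1- library of m234 (0.142%), and were higher in 2 of 5 animals. Also without copies, the mitochondrial subunits made up 0.716% and 0.657%, higher in 5 of 5 animals. These sums over chosen genes carry no test.

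**Figure D4:**
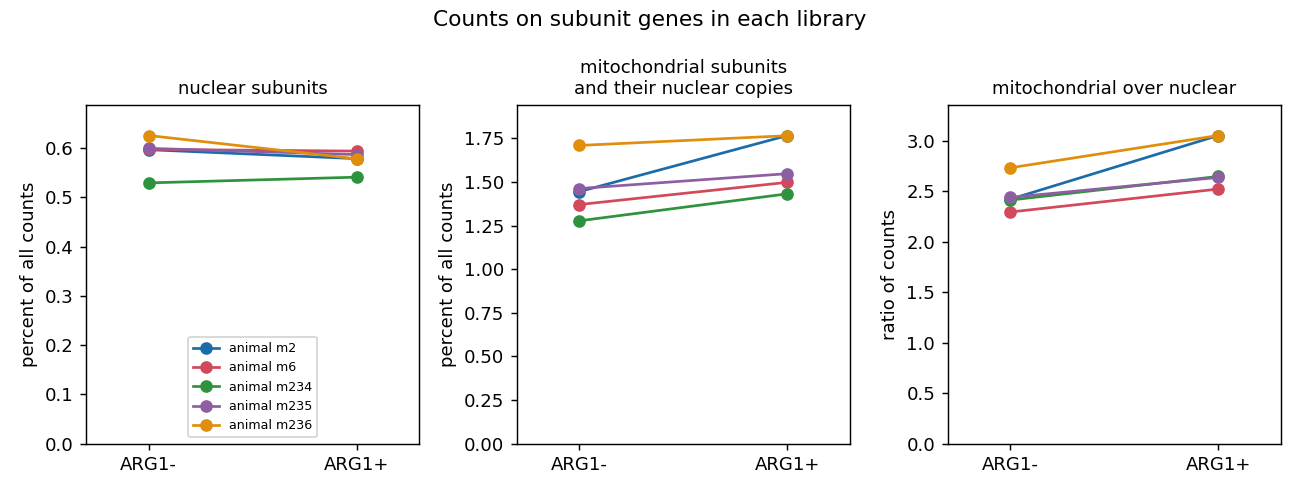
Share of the library's counts in percent on nuclear subunits (left) and on mitochondrial subunits with their nuclear copies (middle), and the ratio of the latter to the former (right), for each ARG1+ and ARG1- library. Lines join the libraries of 1 animal. The middle and right panels run upwards to ARG1+ in all 5 animals, the left panel in 1 of 5.

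Taken animal by animal, the median log2 difference of the nuclear members was 0.03 in m2, 0.06 in m6, 0.12 in m234, 0.003 in m235 and -0.09 in m236, so that its sign was not shared. For the mitochondrial members it was 0.32, 0.11, 0.17, 0.13 and 0.06. Among the nuclear complexes only complex II had a median above 0 in all 5 animals, from 0.03 in m236 to 0.13 in m6. Of the 80 nuclear members tested, 12 were higher in ARG1+ cells of all 5 animals and 8 in none, and of the 9 mitochondrial members 5 were higher in all 5. The share of all tested genes with such agreement is not given here, so that these counts cannot be read as particular to the members.

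**Figure D5:**
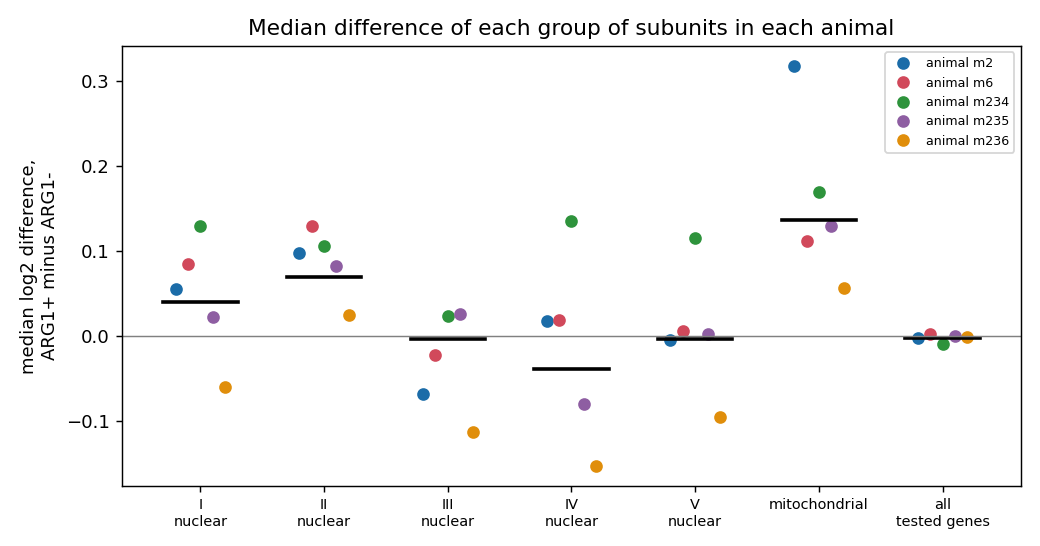
Median log2 difference, ARG1+ minus ARG1- library of the same animal (vertical axis), for the nuclear members of each complex, the mitochondrial members and all tested genes, with 1 point per animal and a black bar for the median fitted log2 fold change. The mitochondrial medians lie above 0 in 5 of 5 animals (0.06 to 0.32), those of the nuclear complexes other than II on both sides, and those of all tested genes close to 0.

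Levels between genes were compared per kilobase of exon (GENCODE M21 basic annotation). The median mean level was 442 CPM per kilobase for the 9 mitochondrial members, 62.6 for the 80 nuclear members and 7.72 for all tested genes with a length. As counted, mt-Co1 was at 1644 and mt-Cytb at 1025, with mt-Nd6 the lowest of the mitochondrial members tested at 7.13. Summed with their copies, mt-Co1 came to 3712, mt-Atp6 to 2881, mt-Co2 to 2625 and mt-Co3 to 1883, all above mt-Cytb, so that the order as counted rests on where reads were assigned. Among nuclear complexes the median was lowest for complex I at 38.3, where Ndufa1 was highest at 105, and lay at 70.3 for complex II, 72.3 for complex III, 75.3 for complex IV and 67.6 for complex V, in which Atp5b reached 345. The exon length of a gene sums all its annotated isoforms, which lowers the level per kilobase of genes with long rare exons such as Ndufb2 (2.18) and Atp5g1.

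NRF1 is a transcription factor known for binding the promoters of nuclear respiratory genes, as are the ETS factor GABP and YY1. RefSeq promoter sequences of GRCm38.p6, 250 bases before to 50 after the start, were matched by symbol for 69 of the 87 nuclear members and searched on both strands for a core of each factor. The NRF1 core GCGCATGCG was in 8 of 69 (11.6%), against 1.95% of the promoters of all 27025 genes in the table. The ETS core CCGGAAGT was in 5 (7.25% against 4.31%), the YY1 motif AAGATGGCG in 7 (10.1% against 1.64%), and any of the 3 in 19 (27.5% against 7.48%). NRF1 cores can overlap their own reverse complement and were then counted once. The 30-base windows around the 8 NRF1 cores are shown since they are what these members share beyond their names, written 5′ to 3′ on the strand of the gene with the core, or its reverse complement, in capitals.
Ndufa8 (chr2:36049328-36049357, minus strand): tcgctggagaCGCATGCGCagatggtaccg
Ndufa11 (chr17:56717692-56717721, plus strand): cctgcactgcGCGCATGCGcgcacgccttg
Uqcrc1 (chr9:108936668-108936697, plus strand): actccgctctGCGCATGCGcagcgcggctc
Uqcr11 (chr10:80406807-80406836, minus strand): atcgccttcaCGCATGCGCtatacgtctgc
Cox6a1 (chr5:115349101-115349130, minus strand): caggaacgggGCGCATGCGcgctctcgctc
Atp5g2 (chr15:102671070-102671099, minus strand): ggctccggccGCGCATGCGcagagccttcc
Atp5k (chr5:108434430-108434459, minus strand): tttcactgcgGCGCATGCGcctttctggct
Atp5l (chr9:44920963-44920992, minus strand): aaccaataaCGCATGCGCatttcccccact
These 8 genes had log2 fold changes from -0.28 (Atp5g2) to 0.19 (Atp5l), with a median of 0.03. The 19 tested members with any of the motifs had a median of 0.005 and the 48 tested members without one a median of 0.016.

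The counts for genes that assemble, feed and regulate the complexes are set beside the shares over all genes tested. These shares were 6.82% higher and 6.15% lower, and with the block 16.8% and 18.3%. Of all 13740 genes tested, 6817 had a log2 fold change above 0. Among 50 tested assembly factors 0 were higher and 2 lower, Ndufaf7, which modifies complex I during assembly (5.57 ± 0.551 against 8.28 ± 1.83 CPM, log2 fold change -0.55, FDR = 0.0310), and Ttc19, a complex III factor (-0.35, FDR = 0.0360). With the block 5 were higher and 4 lower. Coa5, the most abundant, was at -0.03 (FDR = 0.778). Of 18 other electron carriers and dehydrogenases 15 were above 0 and none passed without the block, while 6 were higher with it. Their most abundant gene Gpd2, the mitochondrial glycerol-3-phosphate dehydrogenase, was at -0.13 (FDR = 0.236), and Etfa, the alpha subunit of the electron transfer flavoprotein, at 0.22 (FDR = 0.0643, and FDR = 0.0034 with the block). Among 9 carriers, channels and uncouplers 0 passed without the block and 2 were higher with it, with Ucp2, an uncoupling-protein family member, at -0.06 (FDR = 0.644) and Vdac1, the outer-membrane channel, at 0.16 (FDR = 0.102).

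Of 19 enzymes of the tricarboxylic acid cycle and pyruvate oxidation, 2 were higher and 1 lower, and with the block 5 and 1. Idh2, the mitochondrial NADP-dependent isocitrate dehydrogenase, was at 44.1 ± 4.44 against 33.6 ± 4.09 CPM and higher in 5 of 5 animals (log2 fold change 0.39, FDR = 0.0180). Dlat, of the pyruvate dehydrogenase complex, was higher as well (0.26, FDR = 0.0446), and Dlst, of the oxoglutarate dehydrogenase complex, lower (-0.15, FDR = 0.0446). Among 26 genes of mitochondrial DNA transcription, replication and RNA stability 19 were above 0 and 1 passed, Ssbp1, the single-stranded DNA-binding protein, lower at -0.22 (FDR = 0.0383), while the most abundant, the polymerase Polg, was at -0.03. With the block 4 were higher and 1 lower. Of 12 regulators of mitochondrial biogenesis 1 passed, Gabpb1, a subunit of GABP, lower at -0.43 (FDR = 0.0281), and with the block 2 were higher and 4 lower. Yy1, the most abundant, was at -0.13 (FDR = 0.181), and Ppargc1a, which encodes PGC-1 alpha, was below the filter.

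Of 7 genes known for their response to low oxygen 4 were above 0 with a median of 0.08, and 1 passed. This was Bnip3, a mitophagy receptor, at 86.5 ± 10.6 against 66.1 ± 2.49 CPM and higher in 5 of 5 animals (log2 fold change 0.39, FDR = 0.0081). With the block 3 of the 7 were higher. Ldha, the lactate dehydrogenase of glycolysis and the most abundant of the 7, was at 0.20 (FDR = 0.175, and FDR = 0.0211 with the block). Of 77 mitochondrial ribosomal proteins 58 were above 0 with a median of 0.05, and 1 passed, Mrpl52, lower at -0.42 (FDR = 0.00327), against 11 higher and 3 lower with the block. Mrpl24, the most abundant, was at -0.12 (FDR = 0.209). Of 96 cytosolic ribosomal proteins 5 were above 0 with a median of -0.17, and 10 passed, all lower, with Rpl18 at -0.29 (FDR = 0.0203) and the most abundant, Rpl4, at -0.11 (FDR = 0.343). With the block 70 of them were lower and 1 higher, against 18.3% and 16.8% of all genes tested.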

How the data were processed

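Total RNA of each sorted fraction was made into directional libraries (NEBNext Ultra II) and sequenced as 50-base single-end reads. Reads were aligned by the authors against GRCm38 using STAR (2.7.10b per the submitters' processing notes), counted them on transcripts of the basic Ensembl annotation, release 100, with summarizeOverlaps (Union mode, secondary and vendor-failed alignments ignored) and summed them per gene. A strand setting for this step was not given in the sources used here. Deposited values are raw counts, without normalization. The filter was a CPM above 1 in 3 or more libraries, and the 13740 genes kept (99.8% of all counts) were fitted with edgeR 4.0.16 in R 4.3.3 (quasi-likelihood test, TMM, Benjamini-Hochberg over all genes tested, FDR below 0.05). The study's methods name limma-trend with a further limit of absolute log2 fold change above 1. limma 3.58.1, DESeq2 1.42.0 and other library sizes, filters and left-out libraries were alternatives. The fits were tested on simulated data with known changes.

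Libraries of the same animal were paired: their residuals from the group means had correlations over genes of 0.361 to 0.664, against 0.0675 or less between animals, where genes are not independent replicates. With the smallest library at 8396863 counts, 1 CPM there is 8.40 counts. All 20 pairs of libraries within groups were distinct beyond counting noise (17.8 to 71.7 chi-square units for each degree of freedom).

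Annotated pseudogenes that held at least 10% of the 50-base stretches of a member's transcripts (GENCODE M21, GRCm38) were taken as its copies. Coordinates of genes are those of the table. The members and lists were chosen with earlier results of these data known. Named were the 13 mitochondrial subunits, for each complex the most abundant nuclear subunit and those with the largest positive and negative log2 fold change, every member past the FDR, isoform partners, for each pathway list the most abundant gene and that with the smallest FDR, and Arg1. A few of the genes so chosen are left unreported. Other members are named as called with the block or as holding a motif, or as highest or lowest in level, chosen after their values were seen.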

Additional observations from a re-analysis of the deposited data

Results flagged for a closer look

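In 6 of 74 groups of 5 libraries 1 library stood apart from the others by more than 0.71 of the group's whole range, a limit that chance passes in about 1 in 20 groups. In the ARG1- library of m234, the smallest, 3 values were the lowest of their group, with Cox6b2 at 0.3531 CPM, Atp5l at 18.24 CPM and Atp5g3 at 100.8 CPM. The ARG1+ library of the same animal was the lowest for Atp5g3 as well, at 109.2 CPM. The ARG1+ library of m6 was the highest for Cox6b2, at 1.036 CPM, and the ARG1- library of m235 the lowest for Atp5g2, at 7.154 CPM.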

How the results depend on the processing

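No difference that passed the test as reported changed its sign under any alternative run. The count of nuclear members called higher, 1 as reported, was 2 with DESeq2, 2 with a mean CPM above 5, 0 with the fold limit, 6 with the animal as a replicate block, 0 to 2 with libraries or animals left out, and, in fits chosen after seeing the data, 0 with copies summed, 6 with copies summed and the block, and 6 with the block without m234. The count called lower, 1 as reported, was 3 with total counts as library sizes (Ndufa4, Uqcrfs1 and Ndufs8), 2 with DESeq2, 2 with a mean CPM above 5, 0 with the fold limit, 6 with the block, 0 to 4 with libraries or animals left out (4 without the ARG1- library of m234, which were Cox5b, Ndufa4, Cox6b2 and Uqcrfs1), 5 with copies summed and the block, and 13 with the block without m234, a fit that called 20.8% of all genes lower. The mitochondrial members called higher, 0 as reported, were 4 with the block, 7 with copies summed and the block, and 6 with the block without m234, and 0 under every other alternative run. None was lower under any. Without both libraries of m234, 2 nuclear members were higher (Ndufa12 and Atp5l) and 2 lower (Cox5b and Ndufa4), and leaving out either library of m2 alone, or that of ARG1- cells from m236, left 0 called in either direction. Cox5b shared 11.9% of its 50-base stretches with Cox5b-ps, a row with 8456 counts. Cox5b-ps was itself a member and was not summed with Cox5b, so that the count of Cox5b is uncertain.

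The median log2 fold change of the nuclear members stayed between -0.028 and 0.051, at -0.023 with total counts, and that of the mitochondrial members between 0.075 and 0.200. Total counts as library sizes moved the median of all genes to -0.04 and their calls from 937 higher and 845 lower to 701 and 1282. Over all genes, DESeq2 called 1276 and 1307. The cause of these changes was not tested. In the smallest library 1 CPM is 8.40 counts, which limits Cox6b2, Cox7a1 and the members below the filter, and reads of 50 bases cannot place the mitochondrial copies.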
